A study of Homo sapiens with 9 samples.

Results

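The genes of TGF-beta, activin and BMP signaling were followed in MDA-MB435S cells, a metastatic melanoma line, that carried WWOX, the WWOX-WFPA mutant or an empty vector (EV). Of 59 genes asked for (ligands, receptors, SMADs, latency proteins, antagonists and targets), 57 had at least 1 probe set annotated to them alone, out of 19775 genes measured. BMPR1A and GDF6 were not analysed here. Each gene was read at its brightest probe set, by the mean of the 9 arrays, and 45 of the 57 genes had more than 1 probe set.

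WW domains are short modules that grip proline-rich motifs of other proteins, and WFPA stands for point mutations in the first of those that WWOX carries. RNA was hybridized to 9 Affymetrix U133 Plus 2.0 arrays, 3 each of WWOX, WFPA and EV cells. The protocol, which the labels repeat for all 3 groups, describes stable clones made with a lentiviral vector (pDEST12.2) and selected in G418, and says nothing more of the EV cells. The sources used here do not say how many clones stand behind each group or whether its 3 arrays were separate cultures. An effect of the construct and a difference between clones therefore cannot be told apart, and p-values measure the spread between arrays only. The vector field of the labels names wild-type WWOX for the EV arrays and no insert for the WWOX arrays, and the titles of the EV arrays carry the addition wox+. The groups used here are those in the titles.

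In this pathway a ligand dimer brings type I and type II receptor kinases together. TGF-beta and activin receptors phosphorylate SMAD2 and SMAD3, BMP receptors phosphorylate SMAD1, SMAD5 and SMAD9, and both kinds of SMAD enter the nucleus with SMAD4. Follistatin and noggin hold ligands outside the cell, BAMBI is a receptor without a kinase, SMAD6 and SMAD7 block the receptors from inside, and SMURF ubiquitin ligases mark receptors and SMADs for degradation. In melanoma, TGF-beta signaling is known for slowing the growth of normal melanocytes and for a part in invasion.

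SMAD3 and SMAD4 bind the letters CAGAC and GC-rich elements such as GGCGCC. The 250 bases before the start of 4 of these genes are shown because BAMBI and ID4 are known SMAD targets that differed between the groups, TGFBR3 had the largest rise in WWOX cells against the mean of EV and WFPA cells among the 57 genes, and SMAD6 alone among those found in the table had the palindrome GTCTAGAC. The sequences are from RefSeq (GRCh38.p14), 5′ to 3′ on the strand of the gene, with matches to the 3 motifs named above on either strand in capitals. The positions are chr10:28677271-28677520 (plus strand) for BAMBI, chr6:19837120-19837369 (plus) for ID4, chr1:91886152-91886401 (minus) for TGFBR3 and chr15:66701986-66702235 (plus) for SMAD6.
BAMBI: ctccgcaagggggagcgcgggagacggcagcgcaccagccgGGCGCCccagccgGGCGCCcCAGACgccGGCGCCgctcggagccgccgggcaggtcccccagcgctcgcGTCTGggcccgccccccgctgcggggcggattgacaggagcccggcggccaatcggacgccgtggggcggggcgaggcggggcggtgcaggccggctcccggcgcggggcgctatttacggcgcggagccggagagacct
ID4: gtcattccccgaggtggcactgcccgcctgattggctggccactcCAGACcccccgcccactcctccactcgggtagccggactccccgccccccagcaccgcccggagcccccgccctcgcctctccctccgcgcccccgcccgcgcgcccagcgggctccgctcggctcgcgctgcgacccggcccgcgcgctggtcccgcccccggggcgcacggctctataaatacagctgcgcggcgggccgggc
TGFBR3: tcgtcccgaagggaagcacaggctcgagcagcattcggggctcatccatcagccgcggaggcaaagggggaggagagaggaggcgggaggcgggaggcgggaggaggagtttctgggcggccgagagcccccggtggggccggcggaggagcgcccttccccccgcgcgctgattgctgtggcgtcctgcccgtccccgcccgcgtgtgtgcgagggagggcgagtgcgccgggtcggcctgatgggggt
SMAD6: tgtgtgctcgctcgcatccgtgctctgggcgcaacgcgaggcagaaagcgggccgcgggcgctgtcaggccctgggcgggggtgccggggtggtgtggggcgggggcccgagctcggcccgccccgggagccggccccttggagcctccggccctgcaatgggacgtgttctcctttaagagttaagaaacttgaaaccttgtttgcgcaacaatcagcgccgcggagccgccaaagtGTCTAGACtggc
BAMBI held 2 matches to CAGAC and 3 to GGCGCC, and ID4 held 1 match to CAGAC. No match was found in these letters of TGFBR3. In these 4 sequences no match overlapped another. CAGAC was found in 38% of all 35116 RefSeq promoters of this length, GGCGCC in 16.4%, GTCTAGAC in 0.182% and any of them in 48.9%. Among the 94 promoters of 52 of the 57 genes the shares were 39.4%, 22.3%, 1.06% and 55.3%. A match is a run of letters and was not tested as a binding site.

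At the WWOX probe set with the highest mean, log2 intensity averaged 10.66 ± 0.276 in WWOX cells, 10.24 ± 0.118 in WFPA cells and 8.94 ± 0.284 in EV cells (SD, n = 3 each). Of 5 WWOX probe sets, 2 were called higher in WWOX than in EV cells, and the same 2 in WFPA than in EV cells. None of the 5 was called between WWOX and WFPA cells. At the 2 called probe sets the arrays titled EV were the lowest, although their vector field names wild-type WWOX. Arrays of 1 group correlated at 0.987 to 0.993 in WWOX cells, at 0.996 in WFPA cells and at 0.994 to 0.996 in EV cells over all probe sets. The WWOX replicate 3 array stood somewhat apart, at 0.9875 and 0.9895 with the other two WWOX arrays, which reached 0.9929 with each other. Of the 26 called changes of WWOX cells, 24 were also called without it. Of the 12 melanocytic marker genes chosen, 11 were measured, and MITF, SOX10, S100B and CDH19 were called higher in WWOX cells than in the mean of EV and WFPA cells, by 1.80, 5.43, 6.30 and 2.07 on the log2 scale. The mean level of the melanocytic list was 8.28 to 8.30 in WWOX arrays, 6.85 to 6.90 in WFPA arrays and 6.61 to 6.74 in EV arrays. The pigment genes PMEL, MLANA, TYR and TYRP1 had group means of 2.21 to 5.91 with no call. In the same comparison 1 of 10 epithelial genes was higher (ESRP1) and 3 were lower, 3 of 10 fibroblast genes were higher, none of 8 endothelial genes was called, and 2 of 6 haematopoietic genes were lower, where 1.94% of all genes were called higher and 2.06% lower. The mean level of the fibroblast list was 5.98 to 6.04 in WWOX, 5.30 to 5.43 in WFPA and 5.03 to 5.15 in EV arrays, and that of the haematopoietic list 5.53 to 5.75 in WWOX, 6.58 to 6.66 in WFPA and 6.58 to 6.59 in EV arrays. Their part in the results was not tested.

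Changes were called in limma when they were at least 2-fold and had an adjusted p under 0.05 (Benjamini-Hochberg, over all 54613 probe sets tested). In WWOX cells against the mean of EV and WFPA cells, 4 of the 57 signaling genes were called higher (TGFBR3, ID4, PMEPA1 and BAMBI), where 1.94% of all genes were, and 5 were called lower (INHBA, GDF15, BMP5, SMURF2 and FST), where 2.06% of all genes were. Against EV cells 5 were higher in WWOX cells (2.11% of all genes) and 2 were lower (1.79%). Against WFPA cells 4 were higher in WWOX cells (2.01%) and 6 were lower (2.72%). Between WFPA and EV cells, 4 were higher in WFPA cells (1.54%) and 3 were lower (0.693%). In all, 12 of the 57 genes were called in at least 1 comparison, as 6.64% of all genes were, and 45 in none. INHBA, TGFBR3, BAMBI, PMEPA1, SMURF2 and ID4 were called in all 3 comparisons of WWOX cells, as 2.4% of all genes were. The comparisons share arrays and are not independent of each other.

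The median change of the 57 genes in WWOX cells was 0.0007 against the mean of EV and WFPA cells, beside 0.04 over all genes. With the adjusted p alone and no fold limit, 14 of the 57 genes passed in WWOX cells against that mean (20.3% of all genes did), 14 against EV cells (14.8%) and 19 against WFPA cells (20.4%). In WFPA against EV cells 13 passed (8.62%). The 3 WWOX arrays lay above the 6 others for 7 of the genes (10.8% of all genes) and below them for 6 (10.5%). The WFPA arrays lay above the 6 others for 9 genes (9.25%) and below for 10 (9.39%), and the EV arrays above for 4 (6.42%) and below for 3 (5.21%).

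**Figure D1:**
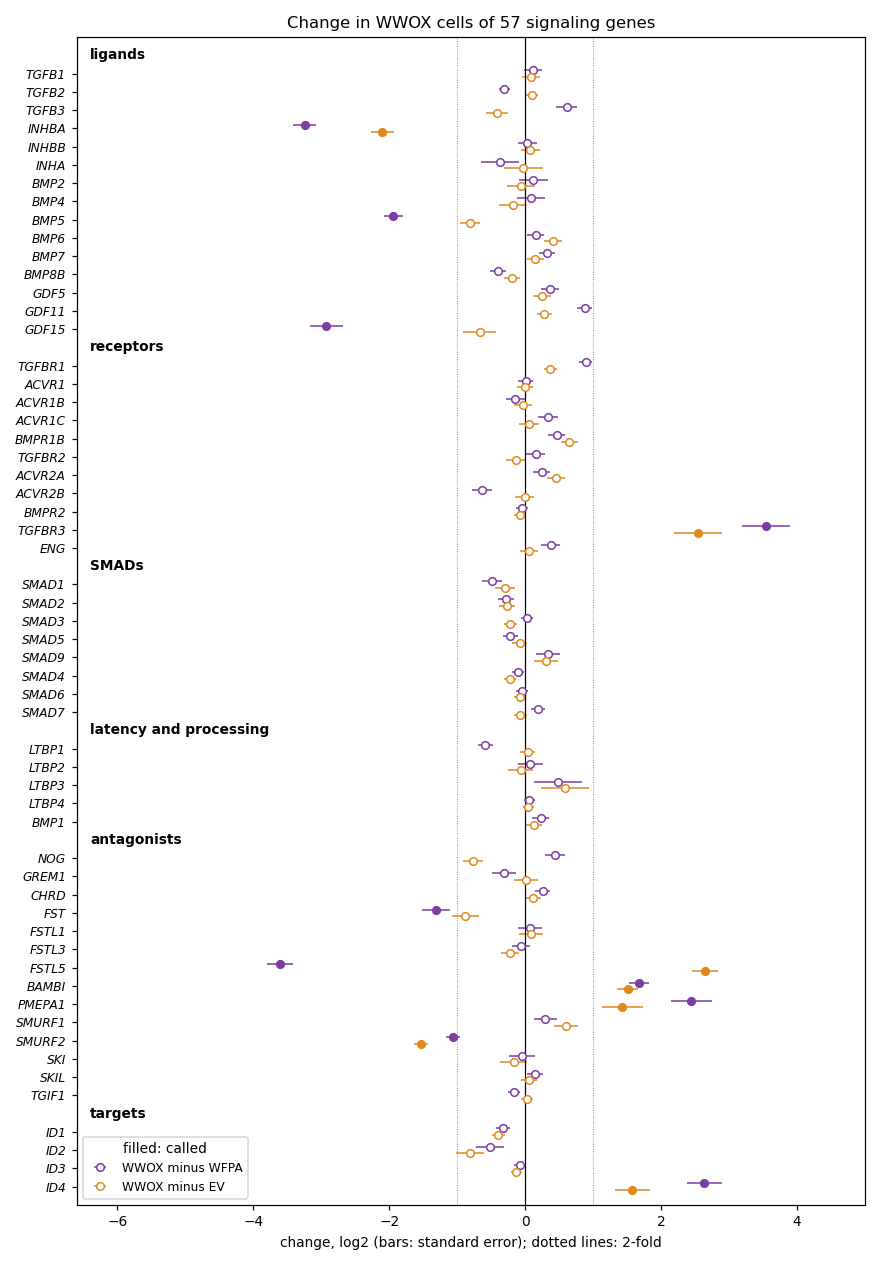
Change in log2 intensity of the 57 genes in WWOX cells (x axis), against WFPA cells (purple) and EV cells (orange), by role; bars are standard errors of limma, filled points are called changes and dotted lines mark 2-fold. TGFBR3 stands farthest to the right (3.54 against WFPA cells) and FSTL5 farthest to the left (-3.61 against WFPA cells) while it lies to the right against EV cells (2.64); all SMADs lie within the 2-fold lines.

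Among the 15 ligands measured, none was called higher in WWOX cells in any comparison, where 1.94% to 2.11% of all genes were. INHBA, GDF15 and BMP5 were lower than in the mean of EV and WFPA cells, where 2.06% of all genes were. INHBA encodes the beta A subunit, whose dimer is activin A. Its log2 intensity was 5.59, 5.44 and 5.78 in the WWOX arrays, 8.94, 8.74 and 8.87 in the WFPA arrays and 7.97, 7.31 and 7.84 in the EV arrays. No group overlapped another, with WWOX cells the lowest and WFPA cells the highest. INHBA was 4.30-fold lower in WWOX than in EV cells (a log2 change of -2.10, standard error 0.17, adjusted p = 6.82e-05) and 9.48-fold lower than in WFPA cells (-3.24, standard error 0.17, adjusted p = 4.24e-06). It was 2.20-fold higher in WFPA than in EV cells (1.14, standard error 0.17, adjusted p = 0.00473), which was under 2-fold without EV replicate 2 (0.94) and with the mean of the 3 INHBA probe sets (0.52). At the 2 other INHBA probe sets, which were dimmer, the difference from the mean of EV and WFPA cells was -0.48 and -0.33 and was not called. The other subunits did not pass the test. INHBB differed by 0.05 from that mean and INHA, which makes inhibins with the beta subunits, by -0.20.

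GDF15, a distant member of the family that signals through GFRAL and RET and rises under cell stress, was highest in WFPA cells. Its log2 intensity was 8.84, 8.98 and 9.91 in the WWOX arrays, 12.28, 12.11 and 12.13 in the WFPA arrays and 9.93, 9.75 and 10.05 in the EV arrays. WFPA cells stood clear of both other groups, and WWOX replicate 3 lay within the EV arrays. GDF15 was 7.62-fold lower in WWOX than in WFPA cells (-2.93, standard error 0.244, adjusted p = 7.5e-05) and 4.79-fold higher in WFPA than in EV cells (2.26, standard error 0.244, adjusted p = 0.000885). Between WWOX and EV cells the difference was -0.67 (standard error 0.244, adjusted p = 0.122) with all arrays and -1.0 without WWOX replicate 3, which was then called (adjusted p = 0.0013). The fall against the mean of EV and WFPA cells (-1.80, adjusted p = 0.000548) was lost in a fit that took EV and WFPA cells for 1 group (adjusted p = 0.114). Its 2 other probe sets changed by -1.83 and -1.32 in that comparison, and both were called.

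BMP5, a bone morphogenetic protein of the BMP7 subgroup, followed the same order of groups as INHBA. It was read at 7.94, 7.86 and 7.38 in the WWOX arrays, 9.60, 9.63 and 9.76 in the WFPA arrays and 8.63, 8.57 and 8.42 in the EV arrays. The 3 groups did not overlap. It was 3.84-fold lower in WWOX than in WFPA cells (-1.94, standard error 0.146, adjusted p = 4.04e-05), and 2.18-fold higher in WFPA than in EV cells (1.13, standard error 0.146, adjusted p = 0.00244). Between WWOX and EV cells it differed by -0.81 (standard error 0.146, adjusted p = 0.00728), which is under 2-fold. The second BMP5 probe set changed by -1.19 against the mean of EV and WFPA cells and was called too. There WWOX and EV arrays overlapped and differed by only -0.31 (adjusted p = 0.354), and WFPA cells stood above both.

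The TGF-beta ligands themselves were not called in WWOX cells. TGFB3 was 7.11, 6.91 and 6.56 in the WWOX arrays, 6.06, 6.50 and 6.20 in the WFPA arrays and 7.24, 7.36 and 7.24 in the EV arrays. The WFPA arrays were the lowest and the EV arrays the highest, without overlap. TGFB3 fell 2.04-fold in WFPA against EV cells (-1.03, standard error 0.158, adjusted p = 0.00553), a change that was under 2-fold without WFPA replicate 1 (-0.93) or EV replicate 2 (-0.99). With the mean of its probe sets it was -0.53, as the second TGFB3 probe set, under the lower quartile in all 3 groups, stood at -0.04. TGFB1 differed by 0.10 and TGFB2 by -0.10 in WWOX cells from the mean of EV and WFPA cells. TGFB2 was 0.31 lower in WWOX than in WFPA cells (adjusted p = 0.0374), under 2-fold. In WFPA against EV cells it was 0.40 higher (adjusted p = 0.0232), also under 2-fold. A dimmer TGFB2 probe set differed by -0.44 from the mean of EV and WFPA cells (adjusted p = 0.0179). The remaining ones, at -0.27 to -0.15, did not pass. Of the other BMPs and GDFs, GDF11, which is close to myostatin, passed the adjusted p but not 2-fold (0.58 against that mean, adjusted p = 0.00348). All differences of the uncalled ligands in that comparison lay between -0.30 and 0.58.

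Of 11 receptors, TGFBR3 was the one called in any comparison, where 6.64% of all genes were. It was higher in WWOX cells. TGFBR3 is betaglycan, a coreceptor that presents TGF-beta2 to its receptors and binds inhibin. Its log2 intensity was 7.95, 7.90 and 6.47 in the WWOX arrays, 4.03, 3.65 and 4.0 in the WFPA arrays and 5.09, 4.97 and 4.64 in the EV arrays. All WWOX arrays lay above all others, with replicate 3 the lowest of them, and the WFPA arrays lay below the EV arrays. TGFBR3 was 5.81-fold higher in WWOX than in EV cells (2.54, standard error 0.352, adjusted p = 0.00186) and 11.7-fold higher than in WFPA cells (3.54, standard error 0.352, adjusted p = 0.000214). Since the lower quartile of an array was 4.23 to 4.34, the WFPA mean was below it, and the size of that fold is uncertain. Without WWOX replicate 3 the changes were 3.02 and 4.03. Between WFPA and EV cells TGFBR3 differed by -1.01 (adjusted p = 0.146), which was called when WWOX replicate 3 was left out (adjusted p = 0.0054). The second TGFBR3 probe set had group means of 3.80 in WWOX, 3.57 in WFPA and 3.85 in EV cells, all under the lower quartile, and differed by 0.09 from the mean of EV and WFPA cells.

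None of the signaling receptors was called. TGFBR1, the type I receptor for TGF-beta, passed the adjusted p in all comparisons but not 2-fold. It was 0.63 higher in WWOX cells than in the mean of EV and WFPA cells (adjusted p = 0.00107), 0.89 higher than in WFPA cells and 0.37 higher than in EV cells. TGFBR2, its type II partner, differed from that mean by 0.01, the activin receptors ACVR1B by -0.09 and ACVR2A by 0.34, and the BMP type II receptor BMPR2 by -0.06. BMPR1B passed the adjusted p with a difference of 0.55, at levels under the lower quartile in all 3 groups. ACVR1C among the receptors and GREM1 among the antagonists were as dim. ENG, endoglin, an accessory receptor best known in endothelial cells, differed by 0.21 and was not called. The activin receptor ACVR2B was 0.64 lower in WWOX than in WFPA cells (adjusted p = 0.0163), again under 2-fold. A dimmer ACVR2B probe set went the other way in that comparison (0.44, adjusted p = 0.0263), with the WWOX arrays above all others. The dimmest stood at -0.08. For ACVR2A the dimmer probe set also had the opposite sign, at -0.42 from the mean of EV and WFPA cells (adjusted p = 0.0521).

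No SMAD was called in any of the 4 comparisons at its brightest probe set, where 6.64% of all genes were called in at least 1. At these probe sets the 5 receptor-regulated SMADs, SMAD4 and the inhibitory SMAD6 and SMAD7 differed by -0.40 to 0.32 in WWOX cells from the mean of EV and WFPA cells. For SMAD2, SMAD5 and SMAD6, 1 dimmer probe set each passed the adjusted p in that comparison. They stood at -0.31 (adjusted p = 0.0371), -0.44 (0.0287) and -0.47 (0.0122), under 2-fold. Their remaining probe sets did not pass. SMAD3, which carries TGF-beta and activin signals, was read at 13.04, 13.16 and 12.91 in the WWOX arrays, 13.03, 13.01 and 12.98 in the WFPA arrays and 13.29, 13.27 and 13.19 in the EV arrays. The WWOX and WFPA arrays overlapped, and the EV arrays lay above both. The difference of WWOX cells was -0.22 from EV cells (95% interval -0.42 to -0.02, adjusted p = 0.167), 0.03 from WFPA cells (-0.18 to 0.23, adjusted p = 0.867) and -0.10 from their mean (-0.27 to 0.08, adjusted p = 0.438). The 3 dimmer SMAD3 probe sets differed by -0.64 (adjusted p = 0.0017), -0.36 (adjusted p = 0.016) and -0.21 from the mean, and none reached 2-fold. At the first and the second of them the WWOX arrays lay below all others, and at the third they overlapped the others. The first differed by -0.77 from EV cells (adjusted p = 0.00172) and by -0.50 from WFPA cells (adjusted p = 0.0118). The second differed by -0.53 from EV cells (adjusted p = 0.00614) and by -0.18 from WFPA cells (adjusted p = 0.212).

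SMAD4, the common partner, was 9.71, 9.68 and 9.50 in the WWOX arrays, 9.65, 9.80 and 9.77 in the WFPA arrays and 9.79, 9.92 and 9.86 in the EV arrays. The WWOX arrays were low but overlapped the WFPA arrays. The difference from the mean of EV and WFPA cells was -0.17 (95% interval -0.35 to 0.01, adjusted p = 0.192). Another SMAD4 probe set, with group means of 5.03 in WWOX, 6.21 in WFPA and 6.0 in EV cells, changed by -1.08 (adjusted p = 0.00245) and was called. SMAD1 was 0.49 lower in WWOX than in WFPA cells (95% interval -0.82 to -0.17, adjusted p = 0.0476), under 2-fold. At its 2 dimmer probe sets it stood at -0.85 (adjusted p = 0.000337) and -0.81 (adjusted p = 0.00756) in that comparison, also under 2-fold. SMAD7, itself a target of TGF-beta, differed by 0.06 from the mean of EV and WFPA cells.

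**Figure D2:**
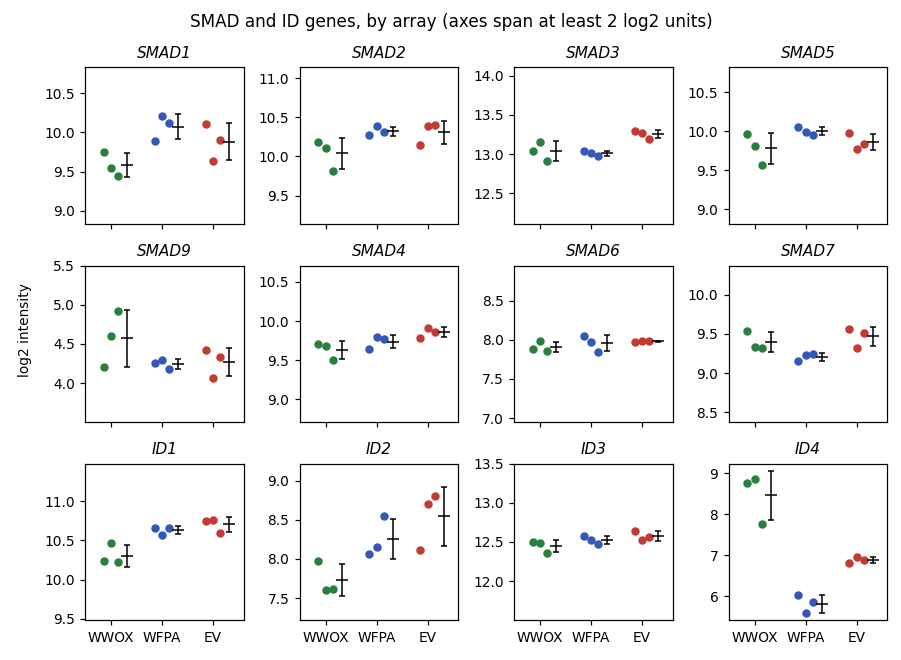
Log2 intensity (y axis) of 8 SMAD genes and the 4 ID genes in WWOX (green), WFPA (blue) and EV (red) cells, 1 point per array and the group mean ± SD beside them (n = 3); each y axis spans at least 2 units. No SMAD was called at the probe sets drawn, while ID4 averages 8.46 in WWOX cells, 5.83 in WFPA cells and 6.88 in EV cells.

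The latent TGF-beta binding proteins LTBP1 to LTBP4, which store TGF-beta in the matrix, and BMP1, a protease that trims matrix proteins, gave no call in any comparison. Of all genes, 6.64% were called in at least 1. LTBP1 was 0.59 lower in WWOX than in WFPA cells (adjusted p = 0.00582) and 0.62 higher in WFPA than in EV cells (adjusted p = 0.00943), both under 2-fold. Among these 5 genes LTBP3 had the widest spread, since WWOX replicate 3 read 9.48 and the 8 other arrays 7.73 to 8.13.

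Of the antagonists kept outside the cell, FST and FSTL5 were called in comparisons of WWOX cells, and FSTL5 and NOG between WFPA and EV cells. FST is follistatin, which binds and neutralizes activin. It was 7.50, 7.87 and 6.98 in the WWOX arrays, 8.80, 8.89 and 8.59 in the WFPA arrays and 8.46, 8.36 and 8.17 in the EV arrays. The WWOX arrays were below all others. FST was 2.49-fold lower in WWOX than in WFPA cells (-1.31, standard error 0.204, adjusted p = 0.00268) and differed by -0.88 from EV cells (adjusted p = 0.0234, under 2-fold), or by -1.09 without WWOX replicate 2, which was called. Against the mean of EV and WFPA cells it fell by 1.10 (adjusted p = 0.0032), which was -0.86 and no longer 2-fold without WWOX replicate 3. The 2 other FST probe sets stood at -1.20 (called) and -0.92 (adjusted p = 0.0098, under 2-fold) in that comparison.

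FSTL5, a secreted protein related to follistatin whose ligands are not well known, had the widest spread of levels between groups. It was 5.67, 5.61 and 5.67 in the WWOX arrays, 9.23, 9.37 and 9.16 in the WFPA arrays and 3.43, 3.04 and 2.55 in the EV arrays. The groups did not overlap, and the order was WFPA, WWOX, EV. FSTL5 was 6.24-fold higher in WWOX than in EV cells (2.64, standard error 0.189, adjusted p = 3.11e-05), 12.2-fold lower than in WFPA cells (-3.61, standard error 0.189, adjusted p = 4.24e-06), and 75.9-fold higher in WFPA than in EV cells (6.25, standard error 0.189, adjusted p = 6.51e-07). All EV arrays were under the lower quartile, so the size of the changes against EV cells is uncertain. Since the WWOX mean lay between the others, the difference from the mean of EV and WFPA cells was -0.48 and was not called.

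NOG, noggin, binds BMPs and keeps them from their receptors. It was 7.65, 7.25 and 7.71 in the WWOX arrays, 7.06, 7.15 and 7.11 in the WFPA arrays and 8.57, 8.17 and 8.19 in the EV arrays. EV cells were the highest and WFPA cells the lowest, with no overlap. NOG was 2.31-fold lower in WFPA than in EV cells (-1.21, standard error 0.148, adjusted p = 0.00184). In WWOX cells it differed from EV cells by -0.77 (adjusted p = 0.00994), under 2-fold. GREM1, CHRD, FSTL1 and FSTL3, which also hold ligands or resemble proteins that do, differed by -0.15 to 0.19 in WWOX cells from the mean and were not called.

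In the membrane and inside the cell, BAMBI and PMEPA1 were higher in WWOX cells and SMURF2 was lower. BAMBI resembles a type I receptor without a kinase and dampens TGF-beta signaling. It read 9.38, 9.35 and 9.34 in the WWOX arrays, 7.82, 7.65 and 7.58 in the WFPA arrays and 7.56, 7.79 and 8.20 in the EV arrays. The WWOX arrays were close together above all others, and WFPA and EV arrays overlapped. BAMBI was 2.84-fold higher in WWOX than in EV cells (1.50, standard error 0.151, adjusted p = 0.000274) and 3.18-fold higher than in WFPA cells (1.67, standard error 0.151, adjusted p = 0.000123). WFPA and EV cells differed by -0.17 (95% interval -0.51 to 0.18).

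PMEPA1, a TGF-beta target that binds SMAD2 and SMAD3 and holds them back, was 8.04, 7.99 and 7.17 in the WWOX arrays, 4.68, 5.64 and 5.54 in the WFPA arrays and 6.34, 6.56 and 6.01 in the EV arrays. The groups did not overlap, with WWOX highest and WFPA lowest. PMEPA1 was 5.44-fold higher in WWOX than in WFPA cells (2.44, standard error 0.305, adjusted p = 0.000807) and 2.69-fold higher than in EV cells (1.43, standard error 0.305, adjusted p = 0.0165). The call against EV cells was lost without WWOX replicate 2 (adjusted p = 0.0565), without EV replicate 3 (0.0643) and in a plain 1-way model (0.0681). Between WFPA and EV cells PMEPA1 differed by -1.02 (adjusted p = 0.0933), called without WWOX replicate 3 (adjusted p = 0.0475). A second PMEPA1 probe set changed by 2.10 against the mean of EV and WFPA cells and was called, and the third, at 0.28, was not. Against EV cells the second was 2.02 higher (adjusted p = 4.51e-05) and the third 0.22 higher (adjusted p = 0.307). At the second, WFPA and EV cells differed by -0.16 (adjusted p = 0.654) and their arrays overlapped.

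SMURF2, a ubiquitin ligase that acts on SMADs and, brought by SMAD7, on the TGF-beta receptor, was 10.88, 10.70 and 10.53 in the WWOX arrays, 11.77, 11.81 and 11.74 in the WFPA arrays and 12.17, 12.28 and 12.28 in the EV arrays. The WWOX arrays were the lowest and the EV arrays the highest, without overlap. SMURF2 was 2.90-fold lower in WWOX than in EV cells (-1.54, standard error 0.103, adjusted p = 2.16e-05) and 2.10-fold lower than in WFPA cells (-1.07, standard error 0.103, adjusted p = 0.000182). The change against WFPA cells was -0.98 without WWOX replicate 3. The 3 other SMURF2 probe sets stood at -0.52, 0.27 and 0.07 in WFPA against EV cells, so EV cells averaged highest at the first alone. Against the mean of EV and WFPA cells they stood at -1.24, -0.85 and -2.01, the first and last of them called. SMURF1, its close relative, differed by 0.45 from that mean (adjusted p = 0.075). The nuclear corepressors SKI, SKIL and TGIF1 differed by -0.11, 0.10 and -0.07 and were not called.

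**Figure D3:**
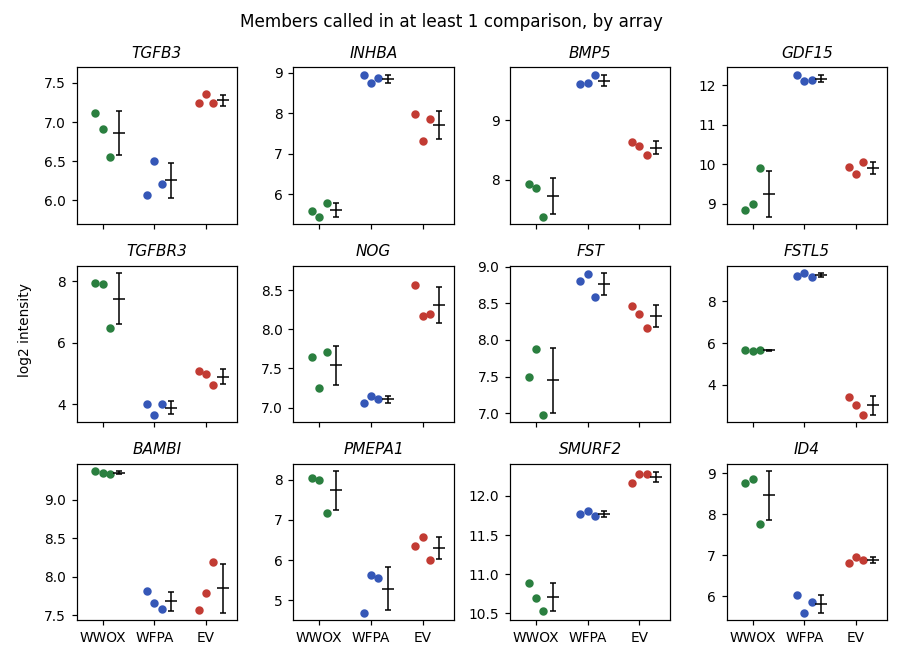
Log2 intensity (y axis, scaled per gene) of the 12 genes called in at least 1 comparison in WWOX (green), WFPA (blue) and EV (red) cells, 1 point per array and the group mean ± SD beside them (n = 3). WWOX cells are highest for TGFBR3, BAMBI, PMEPA1 and ID4, and lowest for INHBA, BMP5, FST and SMURF2; FSTL5 averages 5.65 in WWOX, 9.26 in WFPA and 3.01 in EV cells.

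The ID genes encode helix-loop-helix proteins without a DNA-binding region and are common targets of BMP signaling. ID4 alone was called. It was 8.75, 8.86 and 7.77 in the WWOX arrays, 6.03, 5.60 and 5.85 in the WFPA arrays and 6.81, 6.95 and 6.90 in the EV arrays. The groups did not overlap, with WWOX highest and WFPA lowest. ID4 was 2.98-fold higher in WWOX than in EV cells (1.57, standard error 0.257, adjusted p = 0.00445) and 6.21-fold higher than in WFPA cells (2.63, standard error 0.257, adjusted p = 0.00019). It fell 2.08-fold in WFPA against EV cells (-1.06, standard error 0.257, adjusted p = 0.0426), a call that was lost when any 1 WFPA or EV array was left out (adjusted p 0.0819 to 0.15) and was under 2-fold with the mean of all ID4 probe sets (-0.55). Of its 4 other probe sets, 2 changed by 1.91 and 1.54 against the mean of EV and WFPA cells and were called, and 2 stood at 0.26 and -0.08.

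The other ID genes lay on the opposite side of 0. From the mean of EV and WFPA cells ID1 differed by -0.36 (adjusted p = 0.0207), ID2 by -0.67 (adjusted p = 0.0329) and ID3 by -0.10 (adjusted p = 0.361), and the WWOX arrays were below all others for ID1 and ID2. None of the 3 reached 2-fold. ID2 was 0.81 lower in WWOX than in EV cells, and this was called without EV replicate 1 (-1.02, adjusted p = 0.0117).

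Probe sets of 1 gene did not always agree. At every BMP5 and GDF15 probe set the change against WFPA cells was called, while INHBA and TGFBR3 were called at their brightest probe set alone. With the mean of all probe sets of a gene, the fall of INHBA and the rise of ID4 against EV cells were -0.90 and 0.87, under 2-fold.

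**Figure D4:**
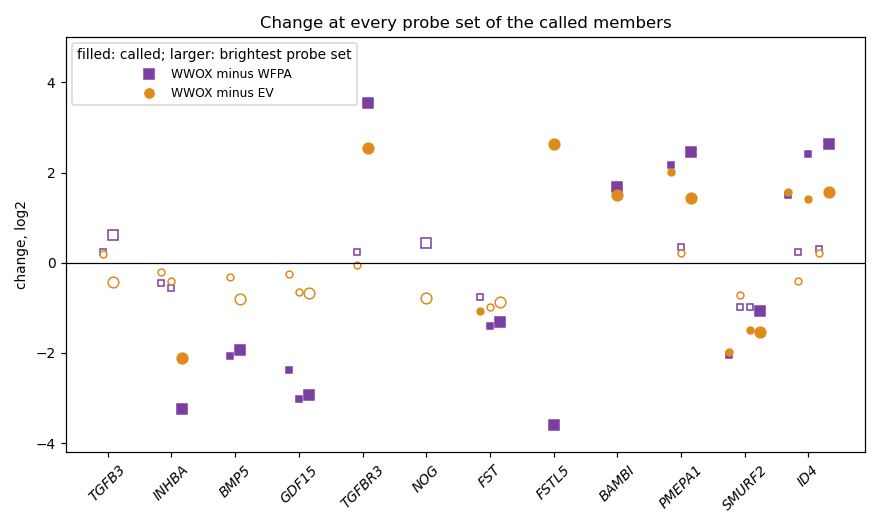
Change in log2 intensity (y axis) in WWOX cells against WFPA cells (squares) and EV cells (circles) at each probe set of the 12 genes called in at least 1 comparison; larger symbols mark the brightest probe set, filled ones are called. SMURF2 lies below 0 at all 4 probe sets, whereas for INHBA the brightest lies at -3.24 and -2.10 and the 2 others lie lower by less, at -0.57 and -0.45 against WFPA cells and -0.40 and -0.21 against EV cells, with no call.

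A further 138 genes of the pathway were listed, of which 128 were measured. In WWOX cells against the mean of EV and WFPA cells 8 of these were higher (1.94% of all genes) and 10 lower (2.06%). Against EV cells 9 were higher (2.11%) and 10 lower (1.79%), and against WFPA cells 9 (2.01%) and 8 (2.72%). In WFPA against EV cells 9 were higher (1.54%) and 5 lower (0.693%). The median change of these genes in the main comparison was 0.09, beside 0.04 over all genes. Of 14 other ligands, INHBE, the activin beta E subunit, was lower in WWOX cells. It averaged 6.79 ± 0.70 in WWOX, 10.11 ± 0.09 in WFPA and 6.93 ± 0.05 in EV cells (SD, n = 3 each), and was 9.98-fold lower in WWOX than in WFPA cells and 9.07-fold higher in WFPA than in EV cells. Like INHBA and GDF15 it was highest in WFPA cells, though WWOX and EV cells differed by only -0.14. Of 8 other receptors and coreceptors, the BMP coreceptor RGMB was lower in WWOX cells, at 10.83 ± 0.09, against 11.84 ± 0.04 in WFPA and 12.66 ± 0.01 in EV cells. Of 14 genes of latent TGF-beta binding and activation, ITGB8, an integrin subunit that helps release TGF-beta, was 2.13-fold higher than in the mean. None of 18 other extracellular antagonists and none of 23 other intracellular regulators was called in that comparison.

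Among 35 TGF-beta target genes, 4 were higher and 5 lower in WWOX cells than in the mean of EV and WFPA cells, where 1.94% of all genes were higher and 2.06% lower, and the median change was 0.04. The 4 that rose were SNAI2, MMP2, COL1A2 and DACT1. Of these, COL1A2 was not called against WFPA cells and DACT1 was not called against EV cells. In WFPA against EV cells COL1A2 was called higher and DACT1 lower. SNAI2, a repressor of epithelial genes that also marks the neural crest, averaged 10.28 ± 0.23 in WWOX, 9.20 ± 0.03 in WFPA and 7.52 ± 0.28 in EV cells (SD, n = 3 each). It was higher than in the mean by 1.92 (adjusted p = 2.6e-05), and the matrix genes MMP2 by 1.37 and COL1A2 by 1.35. POSTN, periostin, fell the most among them. It averaged 5.53 ± 0.50 in WWOX, 7.55 ± 0.16 in WFPA and 8.77 ± 0.23 in EV cells, and was 6.19-fold lower than in the mean (-2.63, adjusted p = 3.8e-05). HBEGF, a growth factor for EGF receptors, fell by 1.68 and TAGLN, an actin-binding protein, fell by 1.37. TAGLN was 4.49-fold lower in WWOX than in WFPA cells and 3.02-fold higher in WFPA than in EV cells. Between WWOX and EV cells it was not called. MYC and COL5A1, also called lower than in the mean, were not called against WFPA cells. CCN2, a widely used TGF-beta target chosen after its values were seen, was 6.95 ± 0.22 in WWOX, 8.41 ± 0.10 in WFPA and 5.57 ± 0.23 in EV cells. It was therefore higher in WWOX than in EV cells (1.38) and lower than in WFPA cells (-1.46), as FSTL5 was.

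Among 17 BMP target genes, 4 were higher in WWOX cells than in the mean (1.94% of all genes) and 3 were lower (2.06%), with a median change of 0.08. TBX2, a T-box repressor active in melanoma, was 4.83-fold higher, at 10.39 ± 0.28 in WWOX, 8.12 ± 0.07 in WFPA and 8.11 ± 0.44 in EV cells. Its relative TBX3 fell by 1.05, at 10.75 ± 0.03 in WWOX, 11.66 ± 0.08 in WFPA and 11.93 ± 0.04 in EV cells. MSX2, a homeobox gene induced by BMPs, was 3.73 ± 0.34 in WWOX, 5.84 ± 0.03 in WFPA and 6.35 ± 0.63 in EV cells, and was 5.17-fold lower than in the mean. HEY2 was 1.25 higher and GATA3 fell by 1.13. GATA3 was 3.81-fold lower in WWOX than in WFPA cells and 3.03-fold higher in WFPA than in EV cells. Between WWOX and EV cells it was not called. The WWOX mean of MSX2 was a dim one, under the lower quartile. SNAI2 stands on both target lists.

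MYC and COL5A1 are left out of what follows. The calls of the other listed genes named here against the mean of EV and WFPA cells held with each array left out in turn. With the mean of all probe sets of a gene, HBEGF, HEY2, ITGB8, MMP2, POSTN, TAGLN and TBX3 came under 2-fold, between -0.96 (POSTN) and 0.96 (ITGB8 and HEY2). In the fit with EV and WFPA cells as 1 group COL1A2, DACT1, GATA3, INHBE and TAGLN lost their calls, with adjusted p-values of 0.0762 to 0.255.

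**Figure D5:**
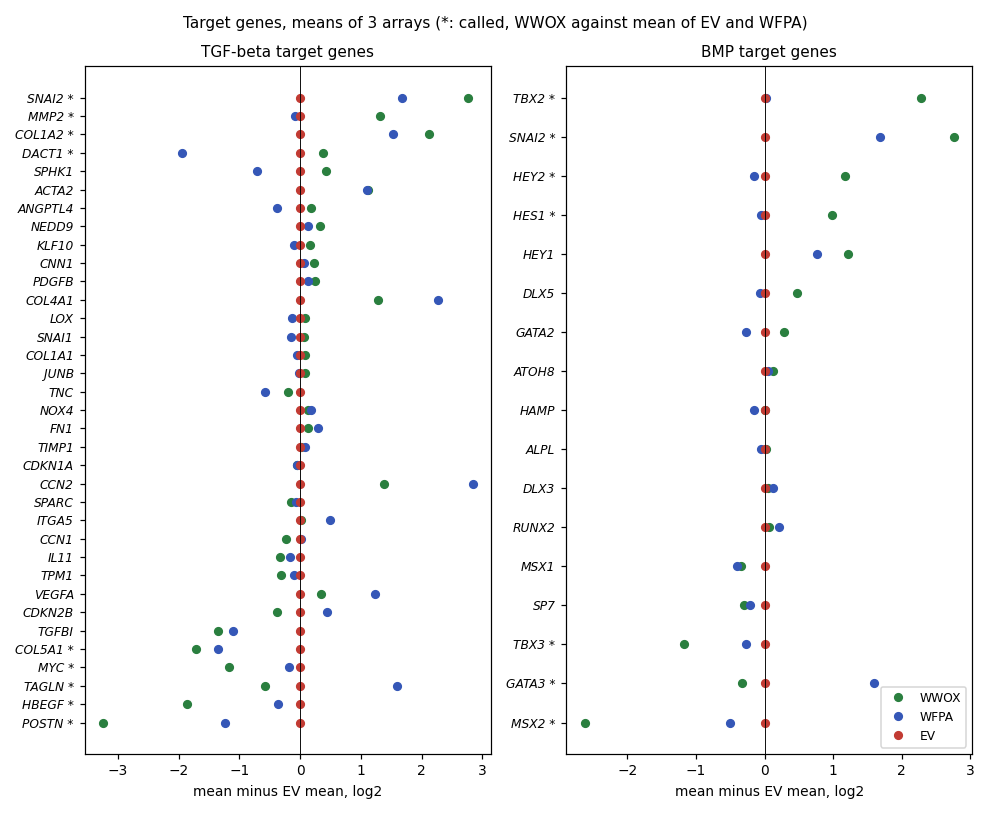
Mean log2 intensity of 3 arrays minus the EV mean (x axis) of 35 TGF-beta target genes (left) and 17 BMP target genes (right) in WWOX (green), WFPA (blue) and EV (red, at 0) cells; a star marks a called change in WWOX cells against the mean of EV and WFPA cells. Targets moved both ways, with SNAI2 and TBX2 to the right and POSTN and MSX2 to the left in WWOX cells.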

How the data were processed

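RNA of MDA-MB435S cells was hybridized to Affymetrix U133 Plus 2.0 arrays, which the authors normalized in Partek Genomics Suite. The values deposited by them are log2 intensities, on a scale common to the 9 arrays. The background and summary methods are not given in the sources used here, and no further normalization was applied. Leaving out 62 array controls, 54613 of 54675 probe sets entered the tests. A single gene was annotated to 41091 of them, several genes to 1801 and no gene to 11721. One probe set shared by ID2 and another gene was left out.

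Group means were fitted over all 9 arrays in limma 3.58.1 under R 4.3.3 (6 residual and 3.04 prior degrees of freedom) and 4 contrasts were tested, two-sided. WWOX was set against the mean of EV and WFPA, against EV and against WFPA, and WFPA against EV. Called changes were at least 2-fold with an adjusted p (Benjamini-Hochberg) under 0.05. The fit was tested on simulated data first. The genes, their roles and the lists were chosen with earlier results of these data known.

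Array values are given for each called gene and for SMAD3 and SMAD4, which the study names, and up to 6 called genes per list with the largest change against the mean of EV and WFPA. Alternatives were other variance models, adjustments, fold limits, filters on dim probe sets, scalings and choices of probe set, EV and WFPA as 1 group, a replicate block, and each array left out. Promoter matches were counted in RefSeq tables (GRCh38.p14) with Python 3.11.15. The number of arrays limits the precision. Same-numbered arrays did not deviate together, so the groups were not treated as paired.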

Additional observations from a re-analysis of the deposited data

How the results depend on the processing

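No called change of these genes reversed its direction under any alternative run. Of the 33 called changes (9 of WWOX cells against the mean of EV and WFPA cells, 7 against EV cells, 10 against WFPA cells, and 7 of WFPA against EV cells), 33 kept their call under limma-trend, a robust prior, quantile normalization, median centring, both filters on dim probe sets and the probe set of largest variance, 31 in a plain 1-way model, 28 with the mean of all probe sets and 8 of 9 with EV and WFPA as 1 group. In the same order of comparisons, the counts were 3, 3, 4 and 1 with Bonferroni adjustment, 14, 14, 19 and 13 with no fold limit, and 3, 3, 6 and 2 at the 4-fold limit of the methods, which call fewer or more genes by construction. With the mean of all probe sets, 4 genes were called in WFPA against EV cells, in place of 7; INHBA, TGFB3 and ID4 came under 2-fold. Leaving out 1 array gave 8 to 9, 6 to 8, 9 to 10, and 4 to 9 called genes; the 4 were found without EV replicate 2 in WFPA against EV cells, where INHBA, TGFB3 and ID4 lost their calls. With the replicate block, 6 genes were called in WFPA against EV cells, where ID4 lost its call (adjusted p = 0.0645), and no other call changed; same-numbered arrays correlated at -0.052 to 0.035. No background level was given, so changes at levels under the lower quartile have an uncertain size.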

Other observations

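SMAD4 and TGIF1 were not called at their brightest probe set, but each had a dimmer probe set that was called. The share of all genes with such a probe set was not counted. For SMAD4 the called probe set changed by -1.08 in WWOX cells against the mean of EV and WFPA cells and by -1.18 against WFPA cells. For TGIF1 it averaged 4.11 in WWOX, 5.38 in WFPA and 4.79 in EV cells, and changed by -1.28 against WFPA cells (adjusted p = 0.0147 from limma). A further SMAD4 probe set changed by -0.74 against the mean (adjusted p = 0.00039), with group means of 8.18 in WWOX, 8.98 in WFPA and 8.86 in EV cells, under 2-fold.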
